A study of Mus musculus with 4 samples.

Results

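Transcript levels of 37 regulators of the 2-cell-like (2C-like) state were compared between control and Ythdf2-knockdown mouse embryonic stem cells (ESCs). The regulators are published repressors and activators of Dux, of the retrotransposon MERVL and of the conversion of ESCs into 2C-like cells. They were listed by that published role, with earlier results of these data known, and they are 37 of the 49997 genes in the count table. All 37 were among the 18341 genes with enough reads to be tested, and none was lost to the filter on low counts.

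The cells were E14 ESCs, an established mouse line, that had been infected with a lentivirus carrying either a scrambled hairpin (shScramble) or a hairpin against Ythdf2 (shYthdf2). Each group had 2 libraries. All cells were grown on gelatin with serum replacement and leukemia inhibitory factor. Both groups were kept as stable lines under puromycin, so the controls shared the vector and the selection, and per the study's methods such lines also carried a tdTomato gene driven by the MERVL promoter. The labels do not say which Ythdf2 hairpin was used or whether the replicates were separate infections, so p-values here measure the spread between these libraries, which may be technical. The 4 libraries held between 31113006 and 36422510 counted reads, and the regulators together took 1.06% to 1.12% of them.

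In ESC cultures a small and fluctuating minority of cells switches on genes of the 2-cell embryo. Several chromatin systems are known to hold these genes silent: KAP1 (Trim28) with SETDB1 and other H3K9 methyltransferases, the LSD1-CoREST deacetylase complex, histone chaperones, the TIP60-p400 acetyltransferase and the SUMO pathway. A smaller set of proteins, DPPA2, DPPA4 and NELFA among them, is known to favour Dux and the 2C-like state. YTHDF2 is a cytoplasmic protein that binds mRNAs carrying N6-methyladenosine (m6A) and hastens their decay. The comparison asks whether the mRNAs of these regulators move when Ythdf2 is depleted.

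Ythdf2 itself stood at 93.4 and 87.6 CPM (read counts scaled to a common library total with edgeR's TMM factors) in the shScramble libraries and at 31.8 and 30.2 CPM in the shYthdf2 libraries. That is 34.2% of the control level (95% interval 28.7% to 40.9%, log2 fold change -1.55 with an SE of 0.11, edgeR quasi-likelihood test with Benjamini-Hochberg adjustment, adjusted p = 0.000693). The libraries carried ESC markers, since the 10 markers tested (Pou5f1, Sox2, Nanog, Esrrb and others) summed to between 6288 and 7043 CPM in every library. Markers of fibroblasts summed to 13.9 to 22.5 CPM, those of primitive endoderm to 59.2 to 86.7 CPM and those of trophoblast to 99.8 to 130 CPM. The lowest adjusted p over the 4 marker lists was 0.059, for Nanog. The summed level of the 27 2C genes tested was 135 and 167 CPM in shScramble against 240 and 544 CPM in shYthdf2. A positive log2 fold change was found in 25 of the 27, where it was found in 50.2% of all genes, and edgeR called 5 of the 27, where it called 3.91% of all genes. Fewer cells of a type and less RNA per cell cannot be told apart in such bulk libraries.

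YTHDF2 reads m6A, which is known to be written mostly at adenosines inside a short consensus, with GGACT its commonest form when written as DNA. The GGACT nearest the stop codon is shown for the 3 regulators with the most negative and the 3 with the most positive log2 fold change. These are the transcripts the comparison turns on. Sites whose 25 printed bases would cross an exon junction or run past the transcript were passed over. Sequences are 25 bases of the transcript strand, 5′ to 3′, read from GENCODE M21 transcripts on GRCm38 (mm10), and the capitals mark the motif.
Lin28a: tctggggaagGGACTcccaggagca
Rcor1: ccagatgagtGGACTgtagaagaca
Smchd1: ctgtgaacgaGGACTtggacaatca
Setdb1: aactcacttgGGACTacaactacga
Daxx: ccacaagggtGGACTctcccagcca
Patz1: cagccgctggGGACTgctgagcaat
The Lin28a site lies in the 3′ UTR, in exon 4 of 4 (chr4:134005701-134005725, minus strand), 390 bases past the end of the stop codon. The Rcor1 site is coding, in exon 5 of 12 (chr12:111097530-111097554, plus strand), 877 bases before that end, and the Smchd1 site is coding, in exon 46 of 48 (chr17:71349682-71349706, minus strand), 249 bases before it. The Setdb1 site is coding, in exon 22 of 22 (chr3:95324146-95324170, minus strand), 87 bases before the end of the stop codon. The Daxx site is coding, in exon 7 of 8 (chr17:33913947-33913971, plus strand), 165 bases before it. The Patz1 site lies in the 3′ UTR, in exon 5 of 5 (chr11:3308089-3308113, plus strand), 33 bases past it.

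No regulator passed the test. By edgeR's quasi-likelihood test 0 of 37 had an adjusted p under 0.05, where 3.91% of all genes tested did (2.43% higher and 1.49% lower in shYthdf2). At an unadjusted p under 0.05 there were 7 of 37, or 18.9% against 20.8% of all genes. Setdb1, Daxx, Patz1 and Ehmt2 were the 4 with a positive log2 fold change (11.0% of all genes), and Lin28a, Rcor1 and Smchd1 the 3 with a negative one (9.8% of all genes). DESeq2 called 3 of 37, Lin28a lower and Daxx and Setdb1 higher. It called 8.9% of the 15750 genes that it gave an adjusted p (5.08% higher and 3.82% lower). By limma-voom 0 of 37 were called, with 3.39% of the 18341 genes called. The criteria the study's methods give for DESeq2 are an unadjusted p of at most 0.05 and a change of at least 2-fold. They took 0 of 37 regulators and 2.88% of the 30565 genes with any read.

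The intervals of the changes rest on the spread between 2 libraries per group, which may be technical. The 95% interval of the log2 fold change lay inside -1 to 1 for 37 of 37 regulators, which was so for 59.1% of all genes tested. A log2 fold change of at least 1 in either direction was found in 0 of 37 regulators and in 9.19% of all genes. Both shares are over genes of every level, and neither was taken over genes of like level. The median SE was 0.11 over the regulators and 0.21 over all genes. The lowest bound was -0.76, for Lin28a, and the highest 0.76, for Asf1a, so a 2-fold change lay outside the interval of each regulator. The median log2 fold change was -0.02 over the regulators and 0.00 over all genes, and the median absolute value was 0.14 against 0.25 over all genes and 0.18 over the 9674 genes in the same range of mean level, 9.35 to 2767 CPM. In that range 5.38% of genes were called. The groups did not overlap for 19 of 37 regulators, 9 higher and 10 lower in shYthdf2, where 51.8% of all genes did not overlap (26.2% higher and 25.5% lower). A positive log2 fold change was found in 18 of 37 regulators and 50.2% of all genes.

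**Figure D1:**
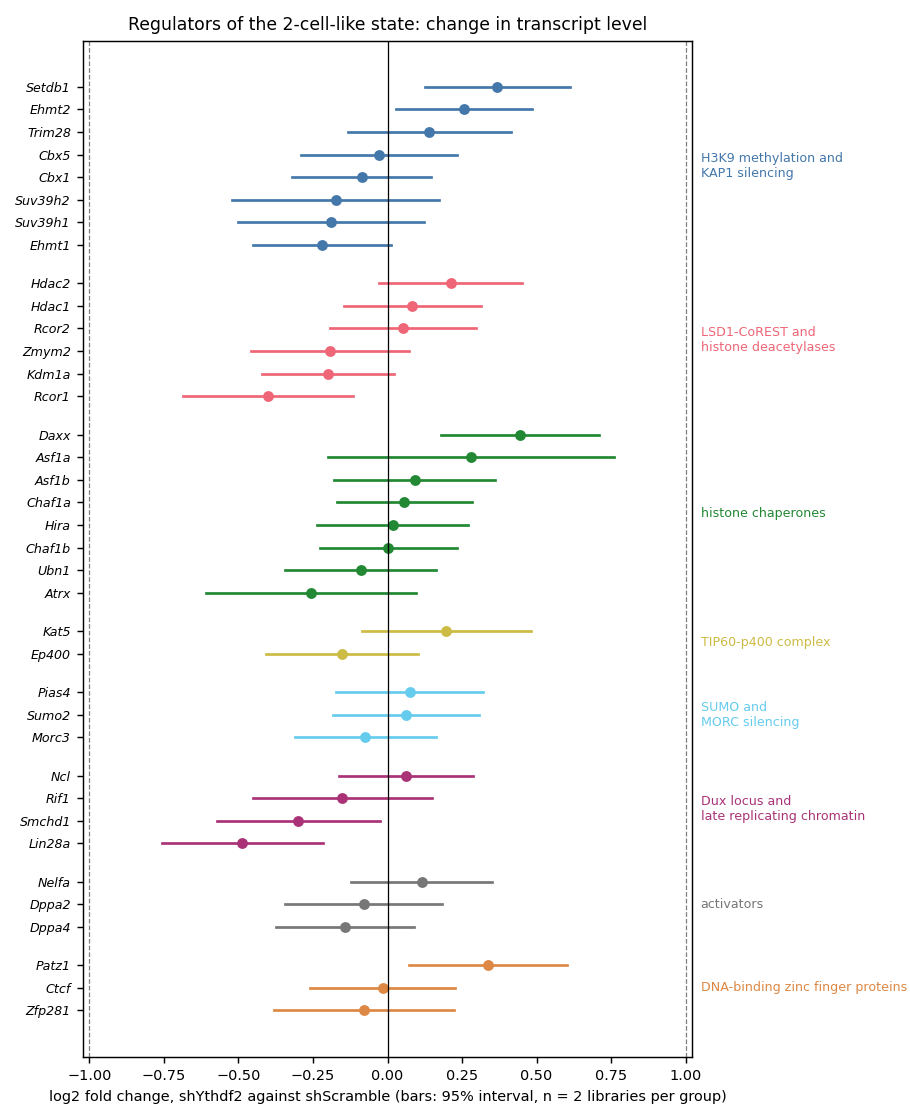
Log2 fold change of each regulator in shYthdf2 against shScramble (horizontal axis, points), with its 95% interval (bars), grouped by role, from 2 libraries per group. Lin28a lies lowest at -0.49 and Daxx highest at 0.44, and every bar ends inside the dashed lines at -1 and 1.

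Among the 8 genes of H3K9 methylation and KAP1 silencing, 3 had a positive and 5 a negative log2 fold change, with a median of -0.06. Setdb1, the H3K9 methyltransferase that KAP1 recruits to retrotransposons, was read at 199 and 173 CPM in shScramble and at 239 and 241 CPM in shYthdf2. The groups did not overlap, and the log2 fold change was 0.37 with an SE of 0.11 (edgeR adjusted p = 0.094, DESeq2 adjusted p = 0.034). Over 13 other settings of the test, not counting a replicate term, its adjusted p ranged from 0.025 to 0.54 and was under 0.05 in 4. Trim28, the scaffold KAP1 itself, was the most abundant regulator per kilobase of exon (611 CPM per kilobase). It was at 2040 and 1728 CPM in shScramble and at 2241 and 1912 CPM in shYthdf2, groups that overlapped, with a log2 fold change of 0.14 (95% interval -0.13 to 0.41).

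Ehmt1 (GLP) and Ehmt2 (G9a), the paired subunits of the H3K9 dimethyltransferase, lay on opposite sides of 0. Ehmt1 was at 128 and 125 CPM in shScramble and 105 and 112 CPM in shYthdf2, and Ehmt2 was at 155 and 161 CPM against 195 and 183 CPM. Neither passed the test, with a log2 fold change of -0.22 (adjusted p = 0.27) for Ehmt1 and 0.26 (adjusted p = 0.19) for Ehmt2. With a correction for GC content, chosen after seeing the data, Ehmt2 was at 0.11 and Ehmt1 at -0.26. The ratio of Ehmt1 to Ehmt2 per kilobase was 0.610 and 0.570 in shScramble and 0.398 and 0.452 in shYthdf2, so the groups did not overlap in it. With 2 libraries against 2, an exact two-sided permutation test cannot go below p = 0.333, and the ratio was not tested further.

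Suv39h1 and Suv39h2, which trimethylate H3K9 at pericentric heterochromatin, both had small negative values. Suv39h1 was at 50.04 and 40.5 CPM in shScramble and 41.7 and 37.8 CPM in shYthdf2 (log2 fold change -0.19), and Suv39h2 was at 22.1 and 20.8 CPM against 17.9 and 20.2 CPM (-0.17). The HP1 proteins that bind the H3K9 mark showed less: Cbx1 (HP1-beta) was at 329 and 367 CPM against 319 and 336 CPM (-0.09), and Cbx5 (HP1-alpha) at 535 and 553 CPM against 481 and 586 CPM (-0.03). In both HP1 genes the groups overlapped.

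Of the 6 genes of the LSD1-CoREST complex and the histone deacetylases, 3 had a positive and 3 a negative value, with a median log2 fold change of -0.07. Rcor1 (CoREST), the scaffold that couples LSD1 to the deacetylases, was at 68.8 and 69.6 CPM in shScramble and at 47.0 and 57.8 CPM in shYthdf2. Both shYthdf2 libraries lay below both controls, at 75.7% of the control level, and the log2 fold change of -0.40 with an SE of 0.13 did not pass the adjusted threshold (adjusted p = 0.11, range over the same 13 settings 0.0042 to 0.38). It was -0.26 without shYthdf2 replicate 1 and -0.56 without replicate 2. Its paralogue Rcor2, the more abundant of the pair in ESCs here, was at 340 and 297 CPM against 343 and 318 CPM (log2 fold change 0.05). The ratio of Rcor1 to Rcor2 per kilobase was 0.104 and 0.120 in shScramble and 0.0701 and 0.0931 in shYthdf2, again without overlap.

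Kdm1a, the demethylase LSD1, had a log2 fold change of -0.20 (95% interval -0.42 to 0.02), and Zmym2, a zinc finger protein of the same complex, one of -0.19 (-0.46 to 0.07). The deacetylase genes lay on the other side. Hdac1 was at 244 and 254 CPM in shScramble and 252 and 275 CPM in shYthdf2 (log2 fold change 0.08), and Hdac2 was at 156 and 153 CPM against 190 and 168 CPM (0.21, adjusted p = 0.30). Only Hdac2 of this pair had groups that did not overlap.

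Of the 8 histone chaperone genes, 6 had a positive and 2 a negative log2 fold change, and the median was 0.04. Daxx, the H3.3 chaperone that works with ATRX at repeats, had the most positive value of all regulators. It was at 97.7 and 82.5 CPM in shScramble and 127 and 118 CPM in shYthdf2, without overlap, at 136% of the control level (95% interval 113% to 163%). The log2 fold change was 0.44 with an SE of 0.12 (edgeR adjusted p = 0.070, DESeq2 adjusted p = 0.018, range over the same 13 settings 0.0027 to 0.39, under 0.05 in 4). Atrx, its partner, was at 342 and 337 CPM in shScramble and at 231 and 338 CPM in shYthdf2, so that replicate 1 alone lay low. The log2 fold change of Atrx was -0.26 with both libraries, -0.56 without shYthdf2 replicate 2 and -0.01 without shYthdf2 replicate 1.

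The replication-coupled chaperone CAF-1 was close to level, with a log2 fold change of 0.06 for Chaf1a and 0.00 for Chaf1b (95% intervals -0.17 to 0.28 and -0.23 to 0.23). The H3-H4 chaperones Asf1a and Asf1b were at 9.58 and 7.30 CPM against 9.97 and 10.5 CPM, and at 47.8 and 42.7 CPM against 49.8 and 46.7 CPM. Asf1a had the widest interval of the regulators (log2 fold change 0.28, 95% interval -0.20 to 0.76, and 0.10 without shScramble replicate 2) and the lowest level per kilobase (4.26 CPM per kilobase), with 230 to 377 reads per library. Of the bases of its exons, 77% also lie in Mcm9 on the opposite strand, and the counts did not use strand, so reads of the 2 genes cannot be told apart there. Hira and Ubn1, subunits of the HIRA chaperone of H3.3, had log2 fold changes of 0.02 and -0.09.

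**Figure D2:**
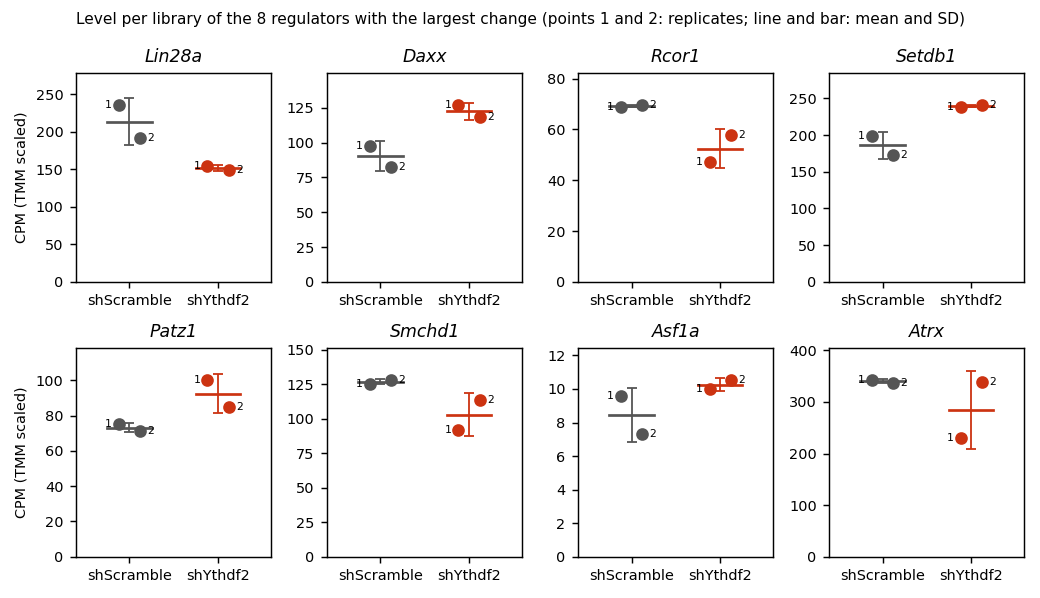
CPM (vertical axis, from 0) in each library for the 8 regulators with the largest absolute log2 fold change, points numbered by replicate, with the mean and SD of 2 libraries per group. The groups are apart in every panel but that of Atrx, where the shYthdf2 libraries stand at 231 and 338 CPM. The panels were picked by size of change. The groups did not overlap in 51.4% of the regulators and in 51.8% of all genes tested.

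The TIP60-p400 complex, which acetylates and remodels chromatin, gave opposite signs in its 2 listed genes. Kat5, the acetyltransferase TIP60, had a log2 fold change of 0.20 (95% interval -0.09 to 0.48), and Ep400, the remodelling ATPase, one of -0.15 (-0.41 to 0.10). In the SUMO and MORC group the values were small: 0.06 for Sumo2, the modifier itself, 0.07 for the SUMO ligase Pias4 and -0.07 for Morc3, an ATPase of retrotransposon silencing. Sumo2 was among the 5 highest regulators per kilobase and was at 237 and 222 CPM in shScramble and 256 and 223 CPM in shYthdf2.

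The group of the Dux locus and late replicating chromatin held the most negative value. Lin28a, an RNA-binding protein known from let-7 control and, in ESCs, from a nucleolar complex with nucleolin that represses Dux, was at 236 and 191 CPM in shScramble and at 155 and 150 CPM in shYthdf2. Both shYthdf2 libraries lay below both controls, at 71.3% of the control level (95% interval 59.1% to 86.0%). The log2 fold change was -0.49 with an SE of 0.12 and missed the threshold narrowly in edgeR (adjusted p = 0.056). It passed in 10 of the same 13 settings, which leave out the replicate term, DESeq2 among them (adjusted p = 0.0060), with a range of adjusted p from 0.0014 to 0.29 and of log2 fold change from -0.63 to -0.33. The highest of these p-values came without shScramble replicate 1, the library with the higher Lin28a level, where the log2 fold change was -0.33.

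The other genes of that group differed. Ncl (nucleolin), which forms the complex with LIN28A, was at 2781 and 2633 CPM in shScramble and 2891 and 2762 CPM in shYthdf2, with a log2 fold change of 0.06 (95% interval -0.16 to 0.29). Smchd1, an SMC-family silencer that acts at the Dux repeats, was at 125 and 128 CPM against 92.1 and 114 CPM (log2 fold change -0.30, adjusted p = 0.20). Its log2 fold change was -0.16 without shYthdf2 replicate 1 and -0.46 without replicate 2, each from a lone shYthdf2 library. Rif1, which controls replication timing, was at 649 and 582 CPM against 481 and 627 CPM with overlapping groups, and its log2 fold change was -0.15 with all libraries and 0.02 without shYthdf2 replicate 1.

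The 95% intervals of the 3 activators all held 0, while the groups did not overlap in Dppa4, lower in shYthdf2, or in Nelfa, higher in shYthdf2. Dppa2 was at 252 and 206 CPM in shScramble and 216 and 217 CPM in shYthdf2 (log2 fold change -0.08, 95% interval -0.34 to 0.18), and Dppa4, which acts as a heterodimer with it upstream of Dux, was at 178 and 164 CPM against 156 and 153 CPM (-0.14, -0.37 to 0.09). Nelfa, a subunit of the negative elongation factor, had a log2 fold change of 0.11 (-0.12 to 0.35). Of the DNA-binding zinc finger proteins, Ctcf, the insulator protein, was at -0.02 and Zfp281, a transcription factor active in ESCs, at -0.08. Patz1, a BTB zinc finger protein, was at 75.2 and 71.3 CPM against 100 and 84.7 CPM, without overlap, with a log2 fold change of 0.34 (SE 0.12, adjusted p = 0.15). That value was 0.21 without shYthdf2 replicate 1 and 0.45 without replicate 2, each from a lone shYthdf2 library.

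**Figure D3:**
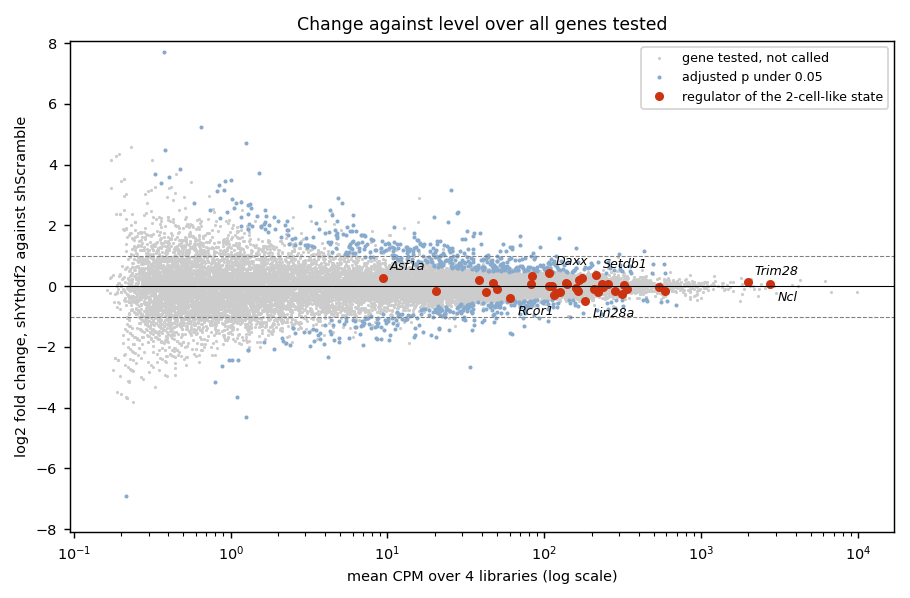
Log2 fold change in shYthdf2 against shScramble (vertical axis) against mean CPM over 4 libraries (horizontal axis, log scale) for all 18341 genes tested, with genes called by edgeR in blue and the 37 regulators in red. The regulators lie between 9.35 and 2767 CPM and between -0.49 and 0.44, inside the dashed lines at -1 and 1.

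Levels per kilobase of exon compare genes only roughly, since they divide by all annotated exons and a transcript can be much shorter. By that measure the 5 highest regulators were Trim28, Ncl, Sumo2, Hdac1 and Dppa2 at 611, 318, 235, 130 and 115 CPM per kilobase. The lowest were Suv39h2 and Asf1a at 4.73 and 4.26 CPM per kilobase. Trim28 stood 85th from the top of 18341 genes and Asf1a 8606th, so that all regulators were in the upper part of the genes tested. The remaining pairs, all but Asf1a to Asf1b, kept overlapping ratios per kilobase. Cbx1 to Cbx5 was 1.54 and 1.66 in shScramble and 1.66 and 1.44 in shYthdf2, Suv39h1 to Suv39h2 was 2.32 and 2.00 against 2.39 and 1.92, Hdac1 to Hdac2 was 2.15 and 2.29 against 1.83 and 2.25, and Dppa2 to Dppa4 was 1.12 and 0.996 against 1.09 and 1.12. Asf1a to Asf1b, at 0.146 and 0.125 against 0.146 and 0.164, did not overlap only by a narrow margin.

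Genes for proteins known to work beside these regulators were tested in the same way. Of 57 partner genes 0 were called by edgeR, DESeq2 or limma-voom, where these called 3.91%, 8.9% and 3.39% of the genes each tested. By edgeR 4 of 57 had an unadjusted p under 0.05, against 20.8% of all genes, and the 95% interval lay inside -1 to 1 for 57 of 57. Their median log2 fold change was -0.02. The largest absolute values were those of Pphln1, a subunit of the HUSH silencing complex, at -0.39 (adjusted p = 0.11), of Epc1, a scaffold of TIP60-p400, at 0.38 (adjusted p = 0.22), and of Senp7, a SUMO protease, at 0.32 (adjusted p = 0.59). Pphln1 was at 64.6 and 55.7 CPM in shScramble and 47.1 and 44.8 CPM in shYthdf2, and Epc1 at 39.8 and 28.9 CPM against 47.7 and 41.9 CPM. Senp7 was at 3.83 and 4.95 CPM against 4.30 and 6.62 CPM, with overlap. The log2 fold change of Senp7 was 0.59 without shYthdf2 replicate 1 and -0.03 without replicate 2. That of Epc1 was 0.63 without shScramble replicate 1 (adjusted p = 0.029) and 0.17 without shScramble replicate 2 (adjusted p = 0.80). A positive log2 fold change was found in 11 of 14 TIP60-p400 partners (median 0.09) and 4 of 14 SUMO partners (median -0.04). It was found in 3 of 11 KAP1-SETDB1, HUSH and H3K9 partners (median -0.05) and 3 of 6 CoREST partners. The histone chaperone partners had 3 of 5, those of the Dux locus 2 of 4 and those of NELF 1 of 3. Among all genes 50.2% had a positive value.

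The shYthdf2 libraries were also set side by side. Measured against the shScramble mean on a log2 scale, the median 2C gene was at 0.61 in shYthdf2 replicate 1 and at 1.58 in replicate 2. The median regulator was at -0.02 and -0.00 in the same libraries, a median over regulators of both signs. Single regulators differed more, as Atrx at -0.56 and -0.01, Rif1 at -0.35 and 0.03 and Zfp281 at -0.25 and 0.08. The log2 difference between replicates of 1 group had an SD over regulators of 0.19 in shYthdf2 and 0.13 in shScramble. The difference between shYthdf2 replicates 1 and 2 ran with exon length over the 37 regulators (Pearson r = -0.62, across genes, which are not independent replicates), so that long genes such as Atrx and Rif1 were the lower in replicate 1. Over all genes tested that r was -0.12, and between the shScramble replicates it was -0.12 over the regulators. The part of this in the regulators' values was not tested.

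**Figure D4:**
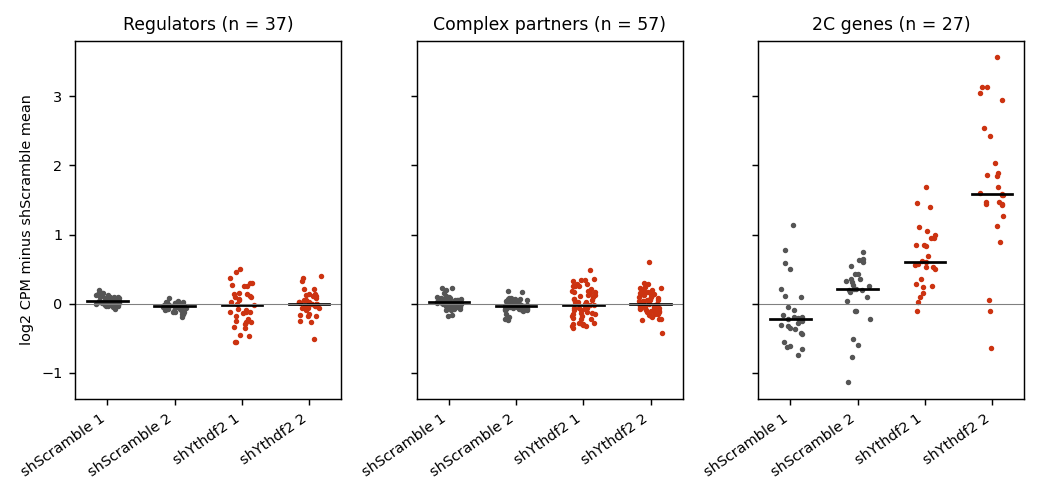
Deviation of log2 CPM from the shScramble mean (vertical axis) in each of the 4 libraries, 1 point per gene and a line at the median, for the 37 regulators, the 57 partners and the 27 2C genes. The regulators' medians lie between -0.04 and 0.04 in every library, while the 2C genes' medians are 0.61 and 1.58 in the shYthdf2 libraries.

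Base composition moved with the change. Across the 37 regulators the log2 fold change had a Pearson r of 0.35 with the GC content of the transcript, which ran from 38.6% to 61.6%, and across 9589 genes of like level it had an r of 0.24, with medians from -0.12 in the decile of lowest GC content to 0.15 in that of highest. Over the 57 partners r was 0.04. Over the regulators r was 0.47 in shYthdf2 replicate 1 and 0.10 in replicate 2, both against the shScramble mean. With the trend removed, the log2 fold change became 0.35 for Daxx (adjusted p = 0.12), 0.23 for Patz1 and -0.22 for Smchd1, while Lin28a was at -0.51 (adjusted p = 0.035) and Setdb1 at 0.38 (adjusted p = 0.068). The largest shift of any regulator was 0.16.

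**Figure D5:**
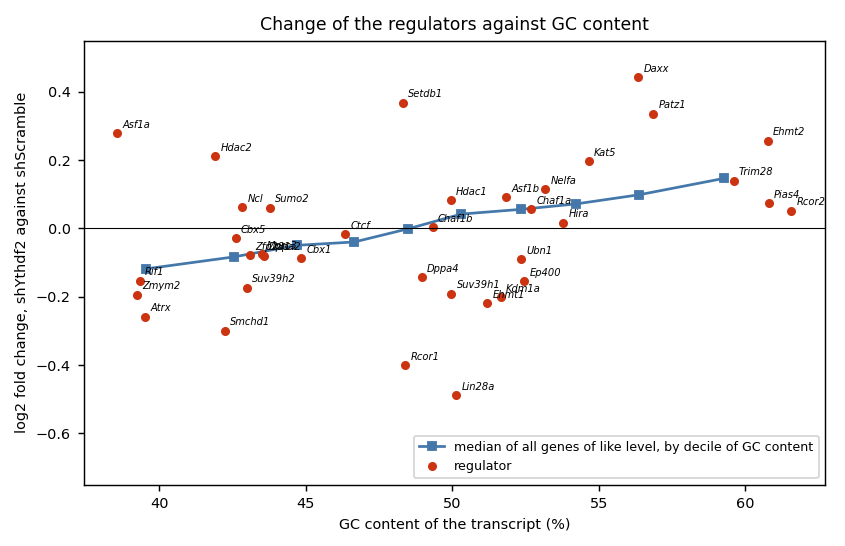
Log2 fold change of each regulator in shYthdf2 against shScramble (vertical axis) against the GC content of its transcript in percent (horizontal axis), with the median of genes of like level in each decile of GC content (squares). The squares run from -0.12 to 0.15, and Daxx, Patz1 and Ehmt2 lie toward the GC-rich end, while Setdb1 and Lin28a lie near the middle.

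The m6A consensus was counted around the stop codon, where m6A is known to be dense. In the 200 bases on each side of the end of the stop codon, GGACT on the transcript strand alone was present in 18 of the 34 regulators with a full window (52.9%), against 41.0% of the 12166 genes tested with such a window. The number per kilobase of the whole transcript had a median of 1.06 in the regulators and in all genes. Of the 15 regulators with a positive log2 fold change and a full window, 11 held a site (73.3%), and of the 19 with a negative one, 7 did (36.8%). With shorter windows included, a site was held by 12 of 18 regulators with a positive value (66.7%) and 7 of 19 with a negative one (36.8%). No regulator passed the main test, and a link between site and direction was not tested. Over genes of like level with a full window a site was held by 42.6% of those with a positive and 39.1% of those with a negative value. Setdb1 and Patz1 were among those with a site, and Lin28a, Rcor1 and Smchd1, whose printed sites are given above, were not. The 7 with a site and a negative value were Suv39h1, Suv39h2, Kdm1a, Ep400, Rif1, Ctcf and Zfp281. With a full window, Kat5, Chaf1a, Sumo2 and Nelfa had a positive value and no site. The sign itself turned in some setting in 13 of the 37 regulators. Among regulators with a full window, the median log2 fold change was 0.06 with a site and -0.09 without. Over 8110 genes of like level it was 0.02 and -0.01. The median GC content of these regulators was 49.96% with a site and 46.6% without. A match of these letters is a description of the sequence and not a mapped m6A site.

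Some regulators are counted with less certainty. The annotation lists Ehmt2 and Daxx on 4 sequences each, Hira on 3 and Hdac1 on 2, the chromosome and alternate contigs, and reads placed at several positions were left out by the counting. Exon bases shared with other genes, chiefly a gene on the opposite strand, made up 23.8% in Suv39h2, 21.2% in Ctcf, 18.7% in Chaf1a, 18.3% in Kdm1a, 17.9% in Patz1 and 13.5% in Trim28. Stretches of 150 bases were taken along each transcript and sought in the other genes of GENCODE M21. The share of stretches found identically there was 60.7% in Hira, 37.0% in Hdac1, 20.4% in Dppa2, 15.4% in Sumo2 and 12.8% in Dppa4. The counts used the RefSeq annotation, so the loss of reads was not measured, and the levels of these 5 are uncertain.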

How the data were processed

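RNA from 4 samples of E14 ESCs, 2 shScramble and 2 shYthdf2, grouped and numbered by their titles, was sequenced after poly(A) selection. The authors deposited raw read counts per gene, not normalized, with the exon length of each gene. Per the file headers the counts came from featureCounts 2.0.3 over the RefSeq annotation of mm10, counting each read of a pair, without strand. The submitters' processing notes also name fastp 0.19.4, HISAT2 2.2.1 and DESeq2 1.40.2. The table held 0 other columns of per-sample values and no columns of the authors' own comparisons. Counting reads doubles most counts, leaving out reads at several positions lowers genes with close copies, and ignoring strand adds reads of antisense genes.

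The main test was edgeR 4.0.16 (limma 3.58.1, R 4.3.3), quasi-likelihood, TMM scaling, groups only, over all genes kept by filterByExpr (minimum count 10), with Benjamini-Hochberg adjustment over all of them at 0.05. It was also run on simulated data with less spread than these libraries and changes larger than those of the regulators. That run does not show how well changes of the regulators' size are found. Log2 CPM used a prior count of 2. The common biological coefficient of variation was 15.8%, a gene with no read is bounded by 3 reads, and such bounds cover counting error only. DESeq2 1.42.0, limma-voom, other scalings and filters, halved counts, a replicate term, leaving out each library, and a correction for GC content, chosen after seeing the data, were alternatives. The fold changes compare fitted group means.

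The 37 regulators, the partner, 2C and marker lists and the rule for values per library were chosen with earlier results of these data known. By that rule every regulator is named, and values in every library are given for regulators with an adjusted p under 0.05 in edgeR or DESeq2, the 8 with the largest absolute log2 fold change, the 5 highest per kilobase, the gene pairs, and the 3 partners with the largest change. Transcripts were those of GENCODE M21, and MERVL was not analysed here.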

Additional observations from a re-analysis of the deposited data

How the results depend on the processing

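The count of regulators called, 0 higher and 0 lower in the main test, moved in several settings. Shares in brackets are of the genes in that fit, called in either direction. Lower regulators numbered 1 with upper quartile scaling (3.32%), library total scaling (3.63%) and DESeq2 (8.9%). They also numbered 1 with a filter of a mean of at least 1 CPM (5.04%), halved counts (4.83%) and the GC correction (4.68%). Without a filter on low counts they numbered 2 (6.34%). Higher regulators numbered 2 without that filter and 2 with DESeq2. Leaving out each library in turn gave 0 to 3 higher and 0 to 5 lower regulators and 0 to 3 higher partners, with the lone library of an arm assumed to vary like the others. Without shYthdf2 replicate 2 Lin28a, Rcor1, Atrx, Rif1 and Smchd1 passed as lower and Setdb1, Daxx and Patz1 as higher, with 11.8% of all genes called, and the cause was not tested. The median over the regulators lay between -0.042 and 0.048 with a library left out, the higher value without shScramble replicate 1. The numbers of the replicates are not stated to mark a shared batch. The deviations of same-numbered libraries had a correlation of 0.23 over all genes and 0.24 over the regulators, and a fit with a replicate block called 3 regulators higher and 4 lower, 2 partners higher and 1 lower, and 19.2% of all genes. Of the 37 regulators, 29 passed in none of the 14 settings. The sign turned in 13 regulators, among which the largest absolute log2 fold change was 0.15. With the GC correction these were Trim28 (-0.00028), Cbx5 (0.045), Rcor2 (-0.11), Chaf1a (-0.011), Chaf1b (-0.0076), Hira (-0.065), Pias4 (-0.074) and Ctcf (0.025). Chaf1b was also at -0.00058 with RLE scaling, -0.014 with upper quartile scaling, -0.0014 with library total scaling, -0.0047 with the filter of 1 CPM and -0.0014 with halved counts. With a library left out the range was -0.18 to 0.11 for Cbx5, -0.042 to 0.15 for Rcor2, -0.024 to 0.032 for Chaf1b, -0.077 to 0.12 for Hira, -0.040 to 0.15 for Sumo2, -0.15 to 0.0047 for Morc3, -0.35 to 0.024 for Rif1, -0.22 to 0.073 for Dppa2, -0.11 to 0.091 for Ctcf and -0.25 to 0.078 for Zfp281.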
